A study of Ovis aries with 4 samples.

Results

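The 35 genes described here are the genes of the sheep mitochondrial genome as counted in droplet libraries of striatum. They were taken as the unbroken run of identifiers from ENSOARG00020000002 to ENSOARG00020000036, which makes 35 of the 26478 genes listed. The gene lists name 11 of them, all protein genes, and leave 24 unnamed. The named genes stand in the same order as in the mitochondrial genome of the RefSeq sheep assembly ARS-UI_Ramb_v3.0, which holds 37 genes. By that order ENSOARG00020000003 is the RNA of the small ribosomal subunit and ENSOARG00020000005 that of the large one. By the same order 20 of the other identifiers are transfer RNAs. The last 2, ENSOARG00020000021 and ENSOARG00020000026, were counted as transfer RNAs by the selection rule, although each stands where a transfer RNA and a protein gene (ATP8 and ND4L, respectively) lie side by side.

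The study asked how whole cells and isolated nuclei from frozen brain differ as starting material for single-cell RNA sequencing. All tissue was striatum of sheep aged 5 years, with no strain, genotype or treatment labelled, and the whole cells group (papain dissociation, 2 libraries) and the nuclei group (dounce homogenisation in a detergent buffer followed by an iodixanol gradient, 2 libraries) each held 1 library of sheep 1 + 2 (replicate 1) and 1 of sheep 3 + 4 (replicate 2). Every library is therefore a pool of 2 animals, and the protocol text names animals 2 and 3, not 3 and 4, for the second cell suspension. Whole cells were counted with Cell Ranger 6.0.1 and nuclei with 7.0.0, so the preparation and the version of the counting program cannot be told apart. 

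The mitochondrial genome is a small circular DNA carried in many copies per cell. It codes for core subunits of the respiratory chain and of ATP synthase, and for the ribosomal and transfer RNAs that translate them inside the organelle. Both strands are transcribed as long precursors that are cut into the separate RNAs, most of them at the transfer RNAs that lie between the other genes. All other subunits are made from nuclear genes, and neurons depend heavily on this system for ATP.

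A unique molecular identifier (UMI) marks 1 captured RNA molecule and a barcode marks 1 droplet. The libraries held between 1115058 and 70473292 UMIs, fewest in whole cells replicate 1. Of these, 989084 and 16729081 in whole cells and 548822 and 396785 in nuclei came from the mitochondrial genes. The counts were spread over 2162 and 32500 whole cells barcodes and 8815 and 8723 nuclei barcodes, of which any pair of libraries shared between 2 and 87 barcode sequences. Whole cells replicate 1 lacked any UMI of the spiny neuron markers DRD2, ADORA2A and PDE1B and of 3 of the 9 microglia markers, whereas all 12 spiny neuron and all 9 microglia markers were counted in the other 3 libraries. Marker levels also differed between the kinds. The 12 spiny neuron markers summed to 0.0437% and 0.140% of the UMIs of nuclear genes in whole cells, against 0.509% and 0.436% in nuclei. The 8 oligodendrocyte precursor markers summed to 0.0659% and 0.0442%, against 0.243% and 0.256%, and 4 and 1 of them were at 0 in whole cells. The 5 general neuron markers summed to 0.0865% and 0.123%, against 0.262% and 0.280%. Markers of astrocytes, microglia and vascular cells lay the other way. The 7 astrocyte markers summed to 0.214% and 0.315% in whole cells, against 0.209% and 0.200% in nuclei. The 9 microglia markers summed to 0.0206% and 0.0242% in whole cells, against 0.0106% and 0.0145% in nuclei, and the 11 vascular ones to 0.00714% and 0.00939%, against 0.00412% and 0.00542%. The 9 oligodendrocyte markers stood at 0.293% and 0.0692% in whole cells, on either side of the 0.127% and 0.160% of nuclei. The 12 interneuron markers overlapped, at 0.0492% and 0.0817% in whole cells and 0.0410% and 0.0502% in nuclei. The part of the cell types in the differences below was not tested.

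Every barcode of whole cells held mitochondrial UMIs, at a median of 300 and 435 per barcode. Nuclei held a median of 16 and 28 per barcode, and 41 and 2 nuclei barcodes held none. As a share of a barcode's UMIs the median was 91.6% and 87.4% in whole cells and 0.587% and 1.04% in nuclei. The mitochondrial UMIs of nuclei replicate 1 were the most unevenly spread. There the 10% of barcodes with most of them held 63.9% of all mitochondrial UMIs, against 39.8% in nuclei replicate 2, 35.5% in whole cells replicate 1 and 21.6% in whole cells replicate 2. For UMIs of all genes, the top 10% of barcodes held 55.2% and 53.9% in nuclei and 33.0% and 21.2% in whole cells. A median of 13 and 14 of the 35 genes was counted per whole cells barcode and of 8 and 9 per nuclei barcode.

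Nuclei contained less RNA of every mitochondrial gene that could be tested. In the quasi-likelihood test of edgeR with TMM scaling, 34 of the 35 genes passed the filter on low counts, and all 34 fell in nuclei at a Benjamini-Hochberg adjusted p under 0.05. Of all 15781 genes tested, 22.4% fell and 29.8% rose. The gene that did not pass the filter, ENSOARG00020000030, had 2 UMIs in whole cells replicate 2 and none in the other libraries. The smallest difference was that of CYTB, the cytochrome b subunit of complex III, with a log2 fold change of -8.62 (SE 0.69, edgeR adjusted p = 1.69e-11). The largest was that of the transfer RNA ENSOARG00020000004, with -12.98 (SE 0.85, edgeR adjusted p = 2.88e-13). The 11 protein genes had a median of -9.44, the 2 ribosomal RNAs -10.79 and the 21 transfer RNAs tested -11.21, beside 0.61 over all genes. These values depend on the scaling and on the barcodes used. With the library total as the only scale the median of all genes moved from 0.61 to 3.66, CYTB stood at -5.68 and ENSOARG00020000004 at -9.98, and all 34 genes tested were again called lower, while over all genes 79.4% rose and 3.16% fell. Barcodes with at least 200 genes were 68 and 269 of whole cells and 8810 and 8720 of nuclei. Among them 28 genes were tested and all were called lower, at a median of -7.40 in place of -10.62 over the tested mitochondrial genes. There CYTB stood at -5.42 and ENSOARG00020000003 at -6.95 in place of -10.75. Nuclear copies of mitochondrial sequence and the strand of overlapping genes were not resolved, so reads from them may be counted under these names.

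Because the mitochondrial total differed so much, the make-up of that RNA was compared as each gene's share of the mitochondrial UMIs of its library. Such shares add up to 100%, so a larger share of 1 gene forces a smaller one elsewhere. The genome build is not stated and no transcript lengths were used. Shares of different genes are therefore shares of captured molecules and give no order of transcript levels. The 2 ribosomal RNAs made up 49.9% and 48.5% of mitochondrial UMIs in whole cells (mean 49.2% ± 1.02, SD, n = 2), against 18.3% and 31.0% in nuclei (mean 24.7% ± 8.99, SD, n = 2). Both nuclei libraries lay below both whole cells libraries, with a log2 ratio of -1.04. The pool of sheep 1 + 2 gave -1.45 and that of sheep 3 + 4 gave -0.64. The 11 protein genes took the opposite course, at a mean of 50.5% ± 0.876 (SD, n = 2; 49.9% and 51.1%) in whole cells, against 75.2% ± 9.04 (SD, n = 2; 81.6% and 68.8%) in nuclei. Transfer RNAs were a minor part throughout, at 0.236% and 0.437% in whole cells against 0.0884% and 0.158% in nuclei, a log2 ratio of -1.44. Per 1 UMI of a protein gene there were 1.00 and 0.948 ribosomal RNA UMIs in whole cells, against 0.225 and 0.451 in nuclei. With 2 libraries per kind an exact permutation test (two-sided) cannot give a p below 0.333, so none of these shares can pass 0.05 in it. All 3 kinds of RNA reached that value.

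**Figure D1:**
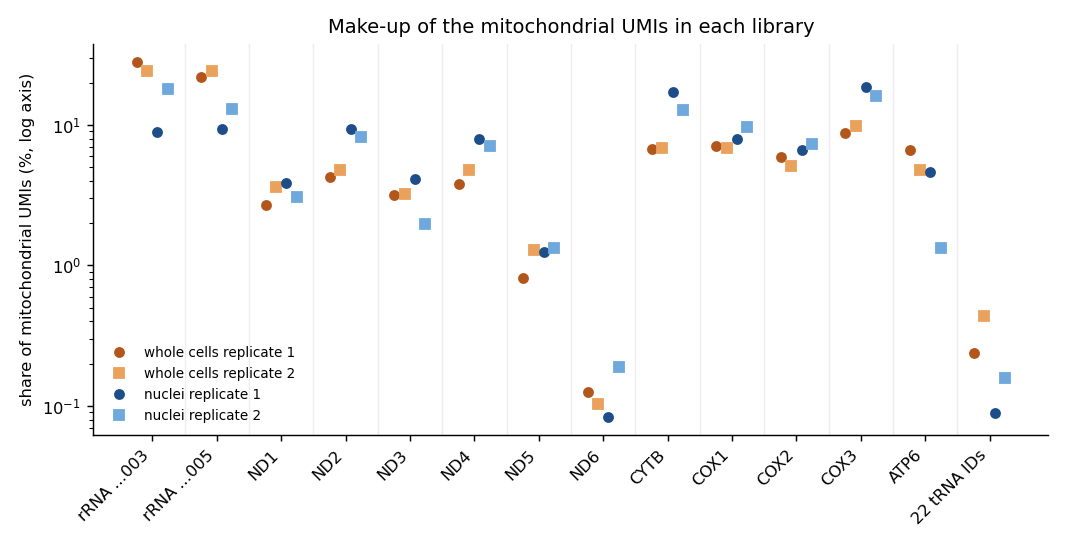
Share of mitochondrial UMIs (%, log axis) of the 2 ribosomal RNAs (the last 3 digits of ENSOARG00020000003 and ENSOARG00020000005 are shown), the 11 protein genes and the 22 transfer RNA identifiers together, with 1 point per library. CYTB, COX3, ND2 and ND4 lie higher in both nuclei libraries than in both whole cells libraries, the ribosomal RNAs lie lower, and ATP6 in nuclei replicate 2 stands at 1.32%.

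The small-subunit ribosomal RNA, ENSOARG00020000003, held 28.1% and 24.4% of mitochondrial UMIs in whole cells, against 8.97% and 18.0% in nuclei. It was lower in both nuclei libraries, and the nuclei libraries differed from each other 2.01-fold. The large-subunit RNA, ENSOARG00020000005, held 21.8% and 24.1% in whole cells and 9.36% and 13.0% in nuclei, again without overlap. There were 1.29 and 1.01 UMIs of the first per UMI of the second in whole cells and 0.958 and 1.38 in nuclei, so this ratio did not separate the kinds. In the edgeR test with the mitochondrial total as the scale, ENSOARG00020000003 had a log2 ratio of -0.96 (SE 0.37, adjusted p = 0.0214) and ENSOARG00020000005 of -1.04 (SE 0.33, adjusted p = 0.00708). With the animal pool as a block they stood at -1.04 (edgeR adjusted p = 0.0646) and -1.05 (edgeR adjusted p = 0.0544). Leaving out nuclei replicate 1 moved ENSOARG00020000003 to -0.54, and leaving out nuclei replicate 2 moved it to -1.55, and the edgeR adjusted p was then 0.572 and 0.128. For ENSOARG00020000005 the same steps gave -0.82 and -1.29, with edgeR adjusted p of 0.396 and 0.194.

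In that test 4 of the 34 mitochondrial genes were called higher and 12 lower in nuclei. These counts cannot be read against the background, since nearly every nuclear gene is raised by a scale that shrank so far: 99.7% of all genes tested were called higher and 0.120% lower. For the same reason the adjustment changes little, and for ATP6 the unadjusted edgeR p was 0.0479 beside an adjusted one of 0.0480. Without a test, 30 genes, or 0.190% of those tested, lay lower in both nuclei libraries than in both whole cells libraries on this scale, and 99.7% lay higher. Of the 13 ribosomal RNA and protein genes, 6 lay higher in both nuclei libraries, 3 lay lower and 4 overlapped.

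Complex I, NADH dehydrogenase, takes electrons from NADH and is the first proton pump of the chain. Its 6 named mitochondrial subunits held 14.8% and 17.8% of mitochondrial UMIs in whole cells against 26.6% and 21.9% in nuclei, a log2 ratio of 0.57. The subunits did not move alike. ND2, a proton-pumping subunit of the membrane arm, stood at 4.25% and 4.80% in whole cells and at 9.33% and 8.27% in nuclei. The nuclei libraries were the higher ones without overlap, at a log2 ratio of 0.96 (SE 0.29, edgeR adjusted p = 0.00485). ND4, also a membrane-arm subunit, stood at 3.79% and 4.74% against 7.97% and 7.09%, with 0.82 (SE 0.29, edgeR adjusted p = 0.0128).

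The other subunits of complex I overlapped between the kinds. ND1, which sits where the membrane arm meets the quinone site, stood at 2.68% and 3.64% in whole cells and 3.86% and 3.07% in nuclei. ND3, a small subunit near the same site, stood at 3.17% and 3.21% in whole cells and at 4.10% and 1.98% in nuclei, so that the 2 nuclei libraries lay on either side of the whole cells. ND5, the membrane-arm subunit at its far end, stood at 0.819% and 1.28% in whole cells and 1.25% and 1.33% in nuclei, with whole cells replicate 1 as the low library. ND6 is the only protein gene on the opposite strand of the genome. It held 0.127% and 0.103% in whole cells and 0.0835% and 0.190% in nuclei, the lowest shares among the protein genes in all 4 libraries. In edgeR none of these 4 subunits was called, with log2 ratios between -0.07 (ND3, adjusted p = 0.834) and 0.30 (ND5, adjusted p = 0.280). Without whole cells replicate 2, which leaves a single whole cells library, the log2 ratio was 0.37 for ND1 and 0.66 for ND5.

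Complex III passes electrons from ubiquinol to cytochrome c. CYTB is its only mitochondrially encoded subunit, and it had the largest rise in share. It held 6.74% and 6.84% of mitochondrial UMIs in whole cells, against 17.2% and 12.7% in nuclei, with nuclei replicate 1 the highest and whole cells nearly equal. The log2 ratio was 1.14 (SE 0.32, edgeR adjusted p = 0.00254). There were 53.2 and 66.5 UMIs of CYTB per UMI of its opposite-strand neighbour ND6 in whole cells and 206 and 66.6 in nuclei, so nuclei replicate 1 alone stood apart.

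Complex IV, cytochrome c oxidase, reduces oxygen to water. Its 3 mitochondrial subunits together held 21.7% in both whole cells libraries, against 33.1% and 32.9% in nuclei, a log2 ratio of 0.60 with the closest agreement between replicates of any complex. COX3, a structural core subunit, held 8.77% and 9.76% in whole cells and 18.6% and 15.9% in nuclei. Its log2 ratio was 0.90 (SE 0.32, edgeR adjusted p = 0.0121). COX1 carries the haem and copper centre where oxygen is reduced, and it held 7.02% and 6.89% against 7.94% and 9.63%. COX2 receives electrons from cytochrome c, and it held 5.91% and 5.08% against 6.60% and 7.31%. Both lay higher in both nuclei libraries, but neither passed the edgeR test, at 0.34 (adjusted p = 0.273) and 0.34 (adjusted p = 0.256). Without whole cells replicate 1, which leaves a single whole cells library, the log2 ratio was 0.35 for COX1 and 0.45 for COX2. 

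ATP6, the proton channel subunit of ATP synthase (complex V), was the protein gene with the lowest log2 ratio and the only one called lower. It held 6.59% and 4.76% of mitochondrial UMIs in whole cells, against 4.65% and 1.32% in nuclei. Nuclei replicate 1 lay just under whole cells replicate 2, and nuclei replicate 2 lay far below all others at 0.284 of the share in nuclei replicate 1. The log2 ratio was -0.93 (SE 0.43, edgeR adjusted p = 0.0480). Without nuclei replicate 1 it was -2.10 (edgeR adjusted p = 0.0244), without nuclei replicate 2 it was -0.29 (edgeR adjusted p = 0.740), and without whole cells replicate 1 it was -0.67 (edgeR adjusted p = 0.0913). ATP6 and COX3 are neighbours on the genome and are cut from the same precursor. There were 1.33 and 2.05 UMIs of COX3 per UMI of ATP6 in whole cells, and 3.99 and 12.1 in nuclei.

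**Figure D2:**
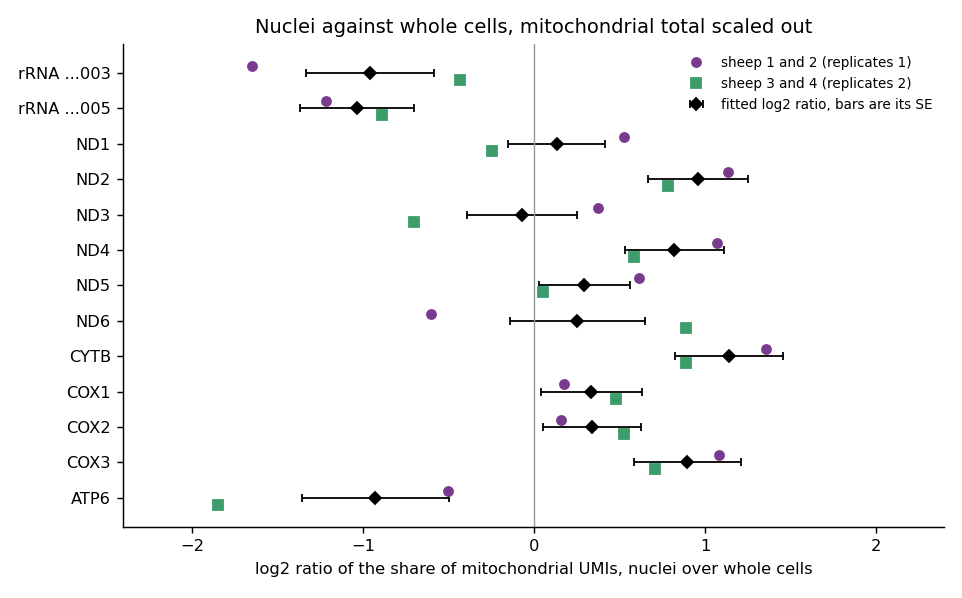
Log2 ratio of each gene's share of mitochondrial UMIs, nuclei over whole cells, with the edgeR estimate and its SE (diamond and bar) beside the ratio within each pool of animals (circle for sheep 1 + 2, square for sheep 3 + 4). CYTB, ND2, COX3 and ND4 lie to the right and both ribosomal RNAs and ATP6 to the left in both pools, while ND1, ND3 and ND6 lie on opposite sides of 0 in the 2 pools.

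The 4 genes called higher kept a positive log2 ratio on this scale under each alternative run, but lost the call under several. DESeq2 called 6 mitochondrial genes lower, all of them transfer RNAs, and 0 higher, where edgeR called 4 higher, and 0 were higher at an unadjusted DESeq2 p under 0.05 too. With DESeq2 the log2 ratio was 1.14 for CYTB and 0.96 for ND2. Both ribosomal RNAs (DESeq2 adjusted p = 0.194 and 0.144) and ATP6 (DESeq2 adjusted p = 0.255) were not called by it either. With the animal pool as a block 1 was called higher, CYTB, while ND2 stood at 0.96 (edgeR adjusted p = 0.0600), COX3 at 0.89 (edgeR adjusted p = 0.0951) and ND4 at 0.83 (edgeR adjusted p = 0.102). With the protein genes alone as the scale edgeR called 0 higher, and 0 at an unadjusted p under 0.05. Then CYTB stood at 0.56 (edgeR adjusted p = 0.158), ND2 at 0.39 (edgeR adjusted p = 0.313), COX3 at 0.32 (edgeR adjusted p = 0.415) and ND4 at 0.25 (edgeR adjusted p = 0.512). As shares of the protein gene UMIs, these 4 genes still lay higher in both nuclei libraries than in both whole cells libraries. CYTB held 13.5% and 13.4% of the protein gene UMIs in whole cells, against 21.1% and 18.4% in nuclei. ATP6 held 13.2% and 9.31% against 5.70% and 1.92%. ND1 (5.38% and 7.12% against 4.74% and 4.46%) and ND3 (6.35% and 6.28% against 5.03% and 2.87%) also lay lower in both nuclei libraries on this scale. COX1 and COX2, by contrast, overlapped on this scale, with COX1 at 14.1% and 13.5% in whole cells and 9.73% and 14.0% in nuclei. Without nuclei replicate 1, and likewise without nuclei replicate 2, edgeR called 0 higher (0 also at an unadjusted p under 0.05), and without either whole cells library it called 6. Without nuclei replicate 1 the log2 ratio was 0.90 for CYTB, 0.87 for ND2, 0.78 for COX3 and 0.73 for ND4, with edgeR adjusted p between 0.294 and 0.377. Without nuclei replicate 2 it was 1.34, 1.05, 1.00 and 0.90, with edgeR adjusted p between 0.123 and 0.281.

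Transfer RNAs carry amino acids to the mitochondrial ribosome, and they are short RNAs without a long poly(A) tail. Their 22 identifiers had 2337 and 73160 UMIs in whole cells, against 485 and 626 in nuclei. Per identifier the lowest, median and highest count was 0, 65 and 332 in whole cells replicate 1 and 2, 1757.5 and 10414 in whole cells replicate 2. It was 0, 12 and 107 in nuclei replicate 1 and 0, 18 and 150 in nuclei replicate 2. As shares of mitochondrial UMIs 14 lay lower in both nuclei libraries, 8 overlapped and 0 lay higher. The edgeR test called 9 of the 21 tested lower and 0 higher (0 also at an unadjusted p under 0.05, and 0 with DESeq2), with log2 ratios from -3.15 to 0.43. The count of lower calls was 4 without nuclei replicate 1, 3 of 20 without whole cells replicate 2 and 6 with DESeq2.

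ENSOARG00020000004, which lies between the ribosomal RNAs, had the most UMIs among the transfer RNAs in whole cells. It had 332 and 10414 UMIs in whole cells, against 19 and 30 in nuclei, a log2 ratio of -3.15 (SE 0.60, edgeR adjusted p = 9.07e-05). It was -3.79 without nuclei replicate 2 and -2.62 without whole cells replicate 2, and was called lower in both. ENSOARG00020000010, the last before ND2, had 284 and 9330 UMIs in whole cells, against 40 and 32 in nuclei, at -2.47 (SE 0.56, edgeR adjusted p = 0.000464). Both were lower in both nuclei libraries. The identifiers with the fewest UMIs were ENSOARG00020000030, described above, and ENSOARG00020000028 with 2 and 128 UMIs in whole cells, against 2 and 5 in nuclei, where a difference in share was not detectable at these counts. A count of 0 for ENSOARG00020000030 limits the barcodes with a UMI of it, not the cells with the RNA, to 0.139% in whole cells replicate 1 and to 0.0340% and 0.0344% in nuclei. The whole cells libraries also differed from each other: all 21 transfer RNAs counted in both had a larger share in replicate 2, at a median log2 ratio of 0.90.

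The number of barcodes in which a gene was seen followed these counts. Unthinned, each of the ribosomal RNA and protein genes except ND6 was counted in at least 88.7% of whole cells barcodes. ND6 was counted in 37.3% and 38.6% of whole cells barcodes and in 4.61% and 7.81% of nuclei barcodes. In nuclei COX3 was seen in 82.5% and 88.3% of barcodes and ATP6 in 52.7% and 35.4%. Median depth differed, at 348 and 504 UMIs per barcode in whole cells and 2612 and 2042 in nuclei. These percents are of deposited barcodes, not of intact cells. Only 68 and 269 barcodes of whole cells held at least 200 genes.

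At an equal depth of 500 UMIs per barcode the 13 ribosomal RNA and protein genes were each seen in a larger share of barcodes in both whole cells libraries than in both nuclei libraries. The 500 UMIs include the mitochondrial ones, so this direction follows from the mitochondrial shares given above. Thinning left out 1600 and 15935 shallower barcodes of whole cells and none of the nuclei. ATP6 was then counted in 100% of whole cells barcodes in both libraries. In nuclei it was counted in 15.0% (exact binomial 95% interval 14.3 to 15.8%) and 8.74% (8.15 to 9.35%) of barcodes. COX3 was counted in 40.5% and 54.0% of nuclei. The small-subunit RNA ENSOARG00020000003 was counted in 31.8% and 64.8% of nuclei. It, the other ribosomal RNA and all protein genes except ATP6 and ND3 were seen in more barcodes of nuclei replicate 2 than of nuclei replicate 1. Thinned to 250 UMIs, which left out 1 barcode of whole cells, ATP6 was counted in 99.6% and 100.0% of whole cells and in 7.88% and 4.85% of nuclei, and COX3 in 25.4% and 36.1% of nuclei. At 500 UMIs ND5 was counted in 93.8% and 99.5% of whole cells barcodes and in 5.43% and 10.1% of nuclei barcodes. The intervals cover counting error only.

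**Figure D3:**
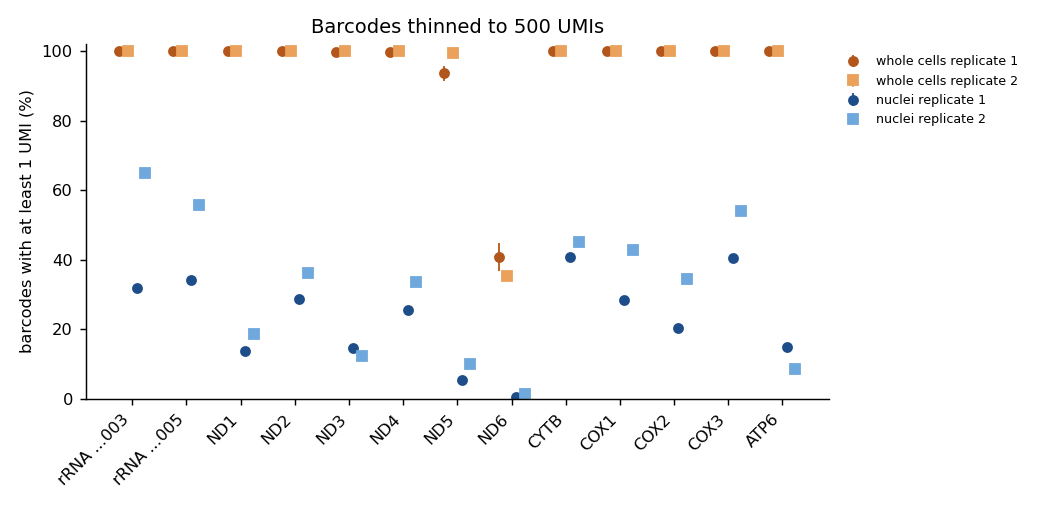
Percent of barcodes with at least 1 UMI of each ribosomal RNA and protein gene after thinning every barcode to 500 UMIs, with exact binomial 95% intervals as bars. Whole cells lie near 100% for all genes but ND5 and ND6, and ATP6 and ND3 are the genes seen in fewer barcodes of nuclei replicate 2 than of nuclei replicate 1.

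Within each library the ribosomal share fell with the depth of the barcode. Barcodes were split into quartiles of total UMIs. From the shallowest to the deepest quartile the ribosomal RNAs went from 54.8% to 47.5% of mitochondrial UMIs in whole cells replicate 1 and from 49.9% to 47.2% in whole cells replicate 2. In nuclei replicate 1 they went from 23.4% to 16.9%, and in nuclei replicate 2 from 36.0% to 27.4%. CYTB went from 5.50% to 7.32%, from 6.54% to 7.09%, from 15.4% to 17.6% and from 10.7% to 14.1% in the same order of libraries. In nuclei most of the step lay between the third and the fourth quartile. Every quartile of both nuclei libraries stood below every quartile of both whole cells libraries for the ribosomal RNAs and above them for CYTB. ATP6 in nuclei replicate 2 lay between 1.25% and 1.36% in all 4 quartiles, and in nuclei replicate 1 between 3.76% and 4.87%, so the gap between these libraries was present at every depth. 

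**Figure D4:**
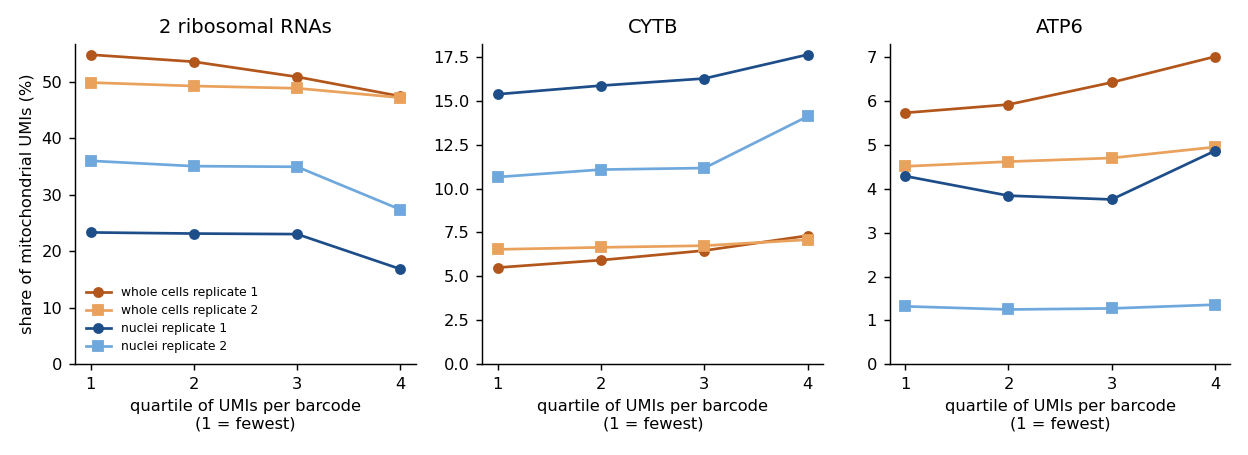
Share of mitochondrial UMIs (%) of the 2 ribosomal RNAs, CYTB and ATP6 by quartile of UMIs per barcode (1 = fewest), with 1 line per library. The ribosomal share is lowest in the deepest quartile of each library, and ATP6 in nuclei replicate 2 stays between 1.25% and 1.36%.

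The make-up of nuclei was also compared between barcodes that held little and much mitochondrial RNA. In nuclei replicate 1 the ribosomal share was 19.3% among the 3800 barcodes with at most 0.5% mitochondrial UMIs and 20.0% among the 107 barcodes with over 5 and up to 20%. In nuclei replicate 2 it was 30.9% among 1906 barcodes and 34.2% among 327 barcodes of the same classes. The few barcodes over 20% stood higher, at 35.1% (3 barcodes) and 41.7% (7 barcodes). ATP6 stayed between 3.94% and 4.94% in replicate 1 and between 1.28% and 1.42% in replicate 2 over all 6 classes. From up to 0.5% to over 2 and up to 5% mitochondrial UMIs, the transfer RNAs of replicate 1 went from 0.181% to 0.0544%. Over the same classes ND6 went from 0.109% to 0.0535% and COX1 from 8.81% to 7.32%. In replicate 2 the transfer RNAs went from 0.167% to 0.162%, ND6 from 0.210% to 0.145% and COX1 from 9.17% to 10.0%.

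Barcodes of whole cells varied more in this make-up than counting error alone gives. Among barcodes with at least 20 mitochondrial UMIs, the variance of the ribosomal share was 14.0 and 7.87 times its binomial value in whole cells and 2.94 and 3.98 times in nuclei. These barcodes were nearly all of the whole cells but 3877 and 5743 of the nuclei, and the excess is easier to see where a barcode has more UMIs. For ATP6 in nuclei replicate 2 the ratio was 1.02, so no spread between nuclei was detectable beyond counting error.

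Nuclei were clustered without the 35 genes, and the clusters were named from marker genes. Of 19 clusters, 11 were named, and 1553 and 1660 nuclei stayed unnamed. The classes found include those of striatum, among them medium spiny neuron-like nuclei (612 in replicate 1, 153 in replicate 2), interneuron-like nuclei (159 and 214) and oligodendrocyte-like nuclei (3839 and 3904). A vascular-like class of 15 and 16 nuclei was left out of the comparison of classes for its size, after its values were seen, and 6 named classes remained. Only 1 cluster was called spiny neuron-like, and other neurons can sit in unnamed clusters. The raised markers of that cluster were DRD2, ADORA2A, PENK and PDE10A. A cluster with the spiny neuron marker TAC1 among its top genes (567 and 150 nuclei) stayed unnamed. Values of the spiny neuron-like class are therefore those of a DRD2-positive subset, not of spiny neurons in general. Doublet calls were 4.25% in replicate 1 and 0 in replicate 2, so none were removed there and doublets may remain. Whole cells were not clustered, since only 68 and 269 of their barcodes held at least 200 genes.

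The mitochondrial share did not rank the classes in the same way in both libraries. Glial nuclei held more in replicate 2: the median was 0.655% and 1.15% in oligodendrocyte-like, 0.345% and 0.969% in astrocyte-like, 0.590% and 1.42% in microglia-like and 0.254% and 0.761% in oligodendrocyte precursor-like nuclei. Different clusters made up most of the oligodendrocyte-like class in the 2 libraries, with 3017 and 1259 nuclei in the one and 345 and 2138 in the other. The 2 named classes of neurons held less in replicate 2, with 0.704% and 0.319% in medium spiny neuron-like and 0.869% and 0.615% in interneuron-like nuclei. The unnamed nuclei held 0.671% and 0.751%. Clustering at resolution 1.0 put 622 and 1055 nuclei in the spiny neuron-like class and moved its medians to 0.705% and 0.572%, and it moved those of the interneuron-like class to 0.581% and 0.488%. Depth differed between classes too, at a median of 32302.5 and 39259 UMIs for the spiny neuron-like class against 2202 and 1596 for the oligodendrocyte-like one, and the part of depth in these differences was not tested. 

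The ribosomal share of mitochondrial UMIs kept the gap between the libraries in every named class. Among the 6 classes it was lowest in spiny neuron-like nuclei, at 16.1% and 22.8%, and highest in microglia-like nuclei, at 26.9% and 37.2%. ATP6 ranged from 3.58% to 5.02% over the 6 classes of replicate 1 and from 1.24% to 1.46% over those of replicate 2, without overlap between the libraries. ND3 likewise ranged from 3.33% to 4.24% and from 1.72% to 2.33%. ND6 ranged from 0.0671% to 0.155% and from 0.184% to 0.247%. Among the 6 classes CYTB was highest in the spiny neuron-like class of both libraries, at 17.9% and 14.6%, and lowest in the microglia-like class, at 13.7% and 10.5%. The small vascular-like class had ribosomal shares of 33.8% and 38.5%, CYTB at 11.5% and 7.61% and ATP6 at 3.32% and 2.01%. Median depth was 32302.5 and 39259 UMIs in the spiny neuron-like class and 1718.5 and 1590 in the microglia-like class. The part of depth in the ribosomal and CYTB shares of the classes was not tested. With 1 library per pool these are descriptions.

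**Figure D5:**
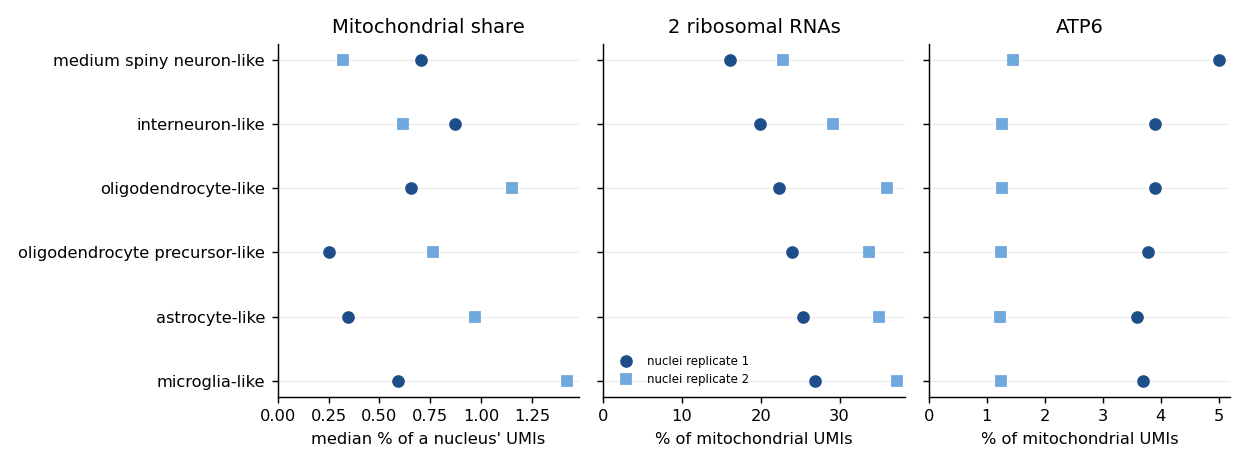
Median mitochondrial percent of a nucleus' UMIs (left), and ribosomal RNA (centre) and ATP6 (right) as a percent of mitochondrial UMIs, for 6 classes of nuclei, with a circle for nuclei replicate 1 and a square for nuclei replicate 2. The libraries are separated in each of the 6 classes for the ribosomal RNAs and for ATP6, which is at most 1.46% in replicate 2 and at least 3.58% in replicate 1.

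Nuclear genes whose products join the mitochondrial ones in the same complexes were set beside them, with the edgeR test and TMM scaling, on which their values depend. For complex I 31 of 33 tested genes fell, 0 rose, and the median log2 fold change was -2.98, where 22.4% of all genes tested fell and 29.8% rose. For complex III 7 of 8 fell, with a median of -2.75, for complex IV 4 of 4 fell, with -4.01, and for complex V 11 of 13 fell, with -3.49. With the animal pool as a block 14.2% of all genes fell and 20.4% rose. Of complex I 26 genes then fell, of complex III 6, of complex IV 4 and of complex V 11. None of these rose in edgeR, also at an unadjusted p under 0.05 or with DESeq2. Of the 2 tested genes of complex II, which has no mitochondrially encoded subunit, 1 rose (SDHC, at 1.91, edgeR adjusted p = 0.00321) and 1 fell (SDHD, at -2.27, edgeR adjusted p = 0.000143). With the animal pool as a block neither was called (edgeR adjusted p = 0.0594 and 0.0723), and with the library total alone SDHD turned to 0.73 (edgeR adjusted p = 0.116). The median over all genes was 0.61. ATP5ME, a small membrane subunit of ATP synthase, had the largest fall among the called genes of these lists with an average log2 CPM of at least 3 and the same direction in both pools, with 103 and 217 CPM (counts scaled to the library total) in whole cells, against 31.5 and 21.0 in nuclei. Its log2 fold change was -5.63 (SE 0.63, edgeR adjusted p = 1.1e-08). COX4I1, a regulatory subunit of complex IV, had 228 and 323 CPM in whole cells, against 67.4 and 68.8 in nuclei, at -5.01 (SE 0.58, edgeR adjusted p = 2.27e-08). With the library total alone ATP5ME stood at -2.64 and COX4I1 at -2.02. The other named genes of these lists were NDUFS5, NDUFB7, UQCR10, UQCRH, COX6B1 and ATP5F1E, at -3.90 to -4.75 with TMM. Those genes stood at -0.90 to -1.76 with the library total alone.

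With the library total alone as the scale, 79.4% of all genes tested were called higher and 3.16% lower. Complex I then counted 9 genes higher and 4 lower, complex II 1 and 0, complex III 1 and 2, complex IV 0 and 3 and complex V 3 and 6. The medians of complexes I, III, IV and V were -0.00051, 0.22, -1.04 and -0.49, beside 3.66 over all genes. The lists for making and handling mitochondrial RNA were called in both directions with TMM. Of 12 genes for mitochondrial transcription and replication 1 rose, the methyltransferase TFB1M (3.02, edgeR adjusted p = 0.000171), and 1 fell, MTERF2 (-1.44, edgeR adjusted p = 0.0181). The median was -0.18. With the library total alone MTERF2 was called in the other direction, at 1.67 (edgeR adjusted p = 0.0133), and with the animal pool as a block it was not called (edgeR adjusted p = 0.279). TFB1M, MTERF2, SDHC and SDHD are named for the small counts, after their values were seen. Of 18 genes for RNA processing and stability 1 rose and 8 fell (median -0.66). Over all genes tested 29.8% rose and 22.4% fell. With the animal pool as a block the RNA processing list had 0 higher and 3 lower, that of transcription 1 and 0, and complex II 0 and 0. With the library total alone 11 genes of the transcription list and 15 of the RNA processing list were called higher and 0 lower (0 also at an unadjusted p under 0.05), beside the 79.4% higher of all genes. REXO2, a nuclease that degrades very short RNA in mitochondria, was the gene of the RNA processing list that rose with TMM. It had 2.69 and 3.27 CPM in whole cells, against 65.8 and 69.6 in nuclei, at 1.35 (SE 0.45, edgeR adjusted p = 0.0116). With the animal pool as a block it stood at 1.46 and was not called (edgeR adjusted p = 0.142).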

How the data were processed

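UMI counts per gene and barcode are the raw counts the authors deposited, 1 matrix per library. The file headers name Cell Ranger 6.0.1 for whole cells and 7.0.0 for nuclei. The submitters' processing notes also list Cell Ranger 2.1.1 and STAR 2.7.2a without a role. The genome build, the annotation and the intron setting are not given in the sources used here. All deposited barcodes were summed per library, because barcodes are not replicates.

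Sums were tested with edgeR 4.0.16 in R 4.3.3 (quasi-likelihood test, filterByExpr, Benjamini-Hochberg adjustment over all genes tested, threshold 0.05). The scale was TMM for the first comparison and the summed UMIs of the 35 genes for the second. The p-values measure the spread between pooled libraries. Alternatives were DESeq2 1.42.0, other scales, filters and barcode choices, and leaving out each library. A fit that leaves out a library has a single library in that group, so its spread comes from the other group alone. The edgeR test with TMM scaling was checked on simulated counts, and the test scaled to the mitochondrial total was not. Thinning to 500 UMIs was without replacement, and percents of barcodes have exact binomial (Clopper-Pearson) 95% intervals. A count of 0 was given an upper limit of 3 counts.

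Nuclei were kept from 200 genes upwards and up to 5% mitochondrial UMIs, and were clustered with scanpy 1.11.5 (doublets called by Scrublet removed, 10000 UMIs per nucleus, 2000 variable genes, 30 components, 15 neighbours, Leiden resolution 0.5). A cluster took the name of a class with at least 3 markers raised.

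The 35 genes and all lists were chosen with earlier results of these data known. Named were all ribosomal RNA and protein genes, the 2 transfer RNAs with most and the 2 with fewest UMIs in whole cells, and the 2 called genes of each nuclear list with the largest fold change, an average log2 CPM of at least 3 and the same direction in both pools. The titles pair the libraries by animals, which the protocol text partly contradicts. Deviations from the group means correlated at -0.043 between libraries of a pool (1791 genes).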

Additional observations from a re-analysis of the deposited data

Results flagged for a closer look

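5 of the 35 genes had opposite differences in the 2 pools of animals, as the log2 ratio of their share of mitochondrial UMIs, nuclei over whole cells. ND1 stood at 0.53 in sheep 1 + 2 and -0.24 in sheep 3 + 4. ND3 stood at 0.37 and -0.70, and ND6 at -0.60 and 0.89. The transfer RNA ENSOARG00020000016 stood at 0.17 and -1.31, on counts of 8 and 313 UMIs in whole cells, against 5 and 3 in nuclei. ENSOARG00020000036 stood at 0.0085 and -0.54. Each pool has 1 library of each kind, so no test of pool against pool could be made.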

How the results depend on the processing

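All mitochondrial genes tested were called lower after TMM scaling under every alternative run: 34 with DESeq2, with the library total alone and with the replicate block, 35 with no filter, 28 among barcodes with at least 200 genes (at a median of -7.40 in place of -10.62) and 33 to 34 without single libraries. None was called higher (0 also at an unadjusted p under 0.05, in edgeR and DESeq2). Relative to the mitochondrial total, 4 were called higher and 12 lower. DESeq2 gave 0 and 6, the protein genes as denominator 0 and 16, and the paired fit with the replicate block 1 and 11. Leaving out single libraries gave 0 to 6 higher and 5 to 11 lower. Shares by kind and complex kept their direction under every alternative, with log2 ratios without single libraries of -1.42 to -0.66 for ribosomal RNA and -2.08 to -0.27 for ATP6. Log2 ratios that changed sign were those of genes not called. With the protein genes as denominator ND1 was -0.44, COX1 -0.22, COX2 -0.22, ND5 -0.26, ND6 -0.27 and ENSOARG00020000028 -0.062. Without single libraries the fit gave -0.069 to 0.37 for ND1, -0.69 to 0.36 for ND3, -0.46 to 0.73 for ND6 and -0.65 to 1.14 for ENSOARG00020000028. The ratios of shares gave -0.079 to 0.36 for ND1, -0.69 to 0.36 for ND3 and -0.45 to 0.74 for ND6, which was -0.043 among barcodes with at least 200 genes. Class medians of the mitochondrial percent, averaged over both nuclei libraries, moved by less than 1 SD between these libraries, except for interneuron-like nuclei. That limit is wide where the libraries differ. At resolution 1.0 the spiny neuron-like class of nuclei replicate 2 moved from 0.319% to 0.572%. Interneuron-like nuclei moved from 0.742% to values between 0.532% and 1.05% over the 3 clustering alternatives. The cause was not tested. The block moved the transfer RNAs called lower from 9 to 10 and changed the list counts given with it. Percents of barcodes with a UMI fell in nuclei from 500 to 250 UMIs, for COX3 from 47.3% to 30.7% on average. Low counts limit the transfer RNAs in nuclei. ND6 had 458 and 755 UMIs there, and its share differed 2.28-fold between the nuclei libraries.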
